A study of Homo sapiens with 8 samples.

Results

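The Eph receptors and their ephrin ligands were examined in naive H3122 cells and in lines derived from them that resist ALK inhibitors. Members were the rows of the deposited table whose Ensembl identifier maps in GENCODE to 6 receptors, EPHA1, EPHA2, EPHA4, EPHB2, EPHB3 and EPHB4, or to 4 ligands, EFNA1, EFNA5, EFNB1 and EFNB2. All 10 genes were found among 43869 genes with values, and they paired with 165 of 126470 H3K27ac peaks at a distance of at most 20 kb. H3122 is a lung adenocarcinoma line driven by an EML4-ALK fusion. The line erCriz0 was maintained in 0.5 μM crizotinib, erAlec0 in 2 μM alectinib and erLor0 in 2 μM lorlatinib, after gradual escalation of the dose, and naive cells had received no inhibitor. Per the labels all 4 were grown in RPMI with serum and handled in DMSO. By the study's methods RNA was taken once cells had spent 48 h free of inhibitor. Each inhibitor is represented here by 1 derived line, and each line gave 1 RNA-seq and 1 ChIP-seq library. No difference between lines therefore has a replicate check, and no test was run.

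Eph receptors form the largest family of receptor tyrosine kinases and bind ephrins that are tethered to the surface of neighbouring cells. Ephrins of the A class are held in the membrane by a lipid anchor and mostly bind EphA receptors, whereas those of the B class span the membrane and mostly bind EphB receptors. Contact between cells can signal into the cell with the receptor and also back into the cell with the ligand, and it guides cell repulsion, adhesion and tissue boundaries. EPHA2 is abundant in many epithelial cancers, lung adenocarcinoma among them, and can also signal without ligand.

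RNA and peak values are rlog values, a log2 of the scaled read number that is drawn toward the mean of the feature where reads are few. Changes were taken on this scale with naive cells subtracted, and a gene or peak is said to have risen or fallen at a change of at least 1 in size. The study's methods set this limit for genes, and it was used here for peaks too. Of all genes, 12701 had an rlog of at least 4.64, the log2 of 25 reads, in at least 1 library, and are called expressed. All 10 members were expressed, with the lowest value of 5.60 for EFNB1 in erLor0. The values are not counts, so the depth of the libraries is unknown. All 6 epithelial markers looked up were expressed, at 10.96 or more in their highest library. Of the lung adenocarcinoma markers NKX2-1 and MUC1 were expressed, whereas NAPSA reached 4.23 and SFTPB 2.03 at most. None of 4 leukocyte markers was expressed, and 3 of the 4 had no positive value. Among the 3 fibroblast and 3 endothelial markers with values only COL1A1, at 9.49 to 10.08, and CDH5 were expressed. CDH5, a cadherin of endothelium, had 4.10 in naive cells and 4.28, 5.78 and 5.64 in erCriz0, erAlec0 and erLor0, and its part in the results was not tested. In bulk samples fewer cells with a transcript and less of it in each cell cannot be told apart.

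**Figure D1:**
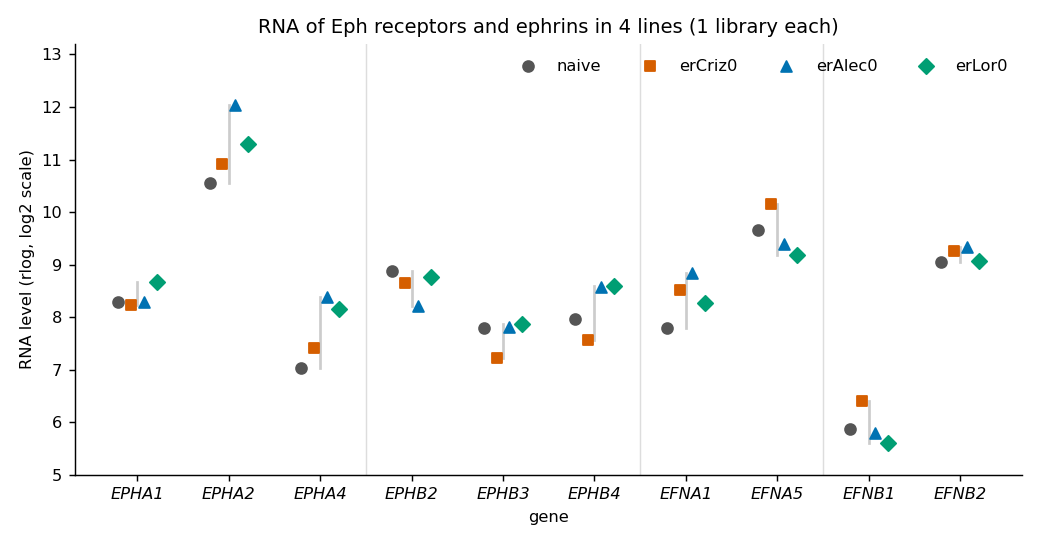
RNA level as rlog (y axis, log2 scale) of the 10 genes (x axis) in naive, erCriz0, erAlec0 and erLor0 cells, 1 library per symbol. Grey lines span the lowest to the highest line, from 0.28 for EFNB2 to 1.499 for EPHA2, and levels of different genes are not corrected for transcript length here.

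Among the EphA receptors EPHA2 and EPHA4 were higher than in naive cells in the 3 resistant lines, most of all in the alectinib-resistant one. In erAlec0, 3 of the 10 members had risen, EPHA2, EPHA4 and EFNA1, where 2.46% of expressed genes had risen. In erLor0 EPHA4 alone had risen, where 1.10% of expressed genes had, and in erCriz0 0 of 10 had, where 2.65% of expressed genes had. No member had fallen in any of the 3 lines, against 1.65% of expressed genes in erCriz0, 2.07% in erAlec0 and 0.740% in erLor0. The members had median changes of 0.29, 0.15 and 0.23 in erCriz0, erAlec0 and erLor0, beside −0.02, 0.00 and 0.00 over all expressed genes.

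EPHA2 (ENSG00000142627.13, chromosome 1 from 16124337 to 16156069 of hg38, minus strand) encodes the receptor whose RNA differed most between lines. Its rlog was 10.55 in naive cells and 10.91, 12.05 and 11.29 in erCriz0, erAlec0 and erLor0. The naive library was the lowest and erAlec0 the highest, and erCriz0 lay nearest to naive cells. It had risen by 1.499 in erAlec0 and was higher by 0.37 in erCriz0 and 0.74 in erLor0. The promoter is shown because the longest H3K27ac peak of the gene covers it. The 250 bases before the start were taken from RefSeq on GRCh38.p14, chr1:16156070-16156319, minus strand, written 5′ to 3′ with motif matches in capitals.
EPHA2 promoter: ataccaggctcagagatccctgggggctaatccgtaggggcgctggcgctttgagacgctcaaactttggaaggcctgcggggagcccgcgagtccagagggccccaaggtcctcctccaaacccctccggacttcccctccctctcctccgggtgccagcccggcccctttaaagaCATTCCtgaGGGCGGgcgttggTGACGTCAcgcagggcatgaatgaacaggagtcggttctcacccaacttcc
The motifs marked, on both strands, were TGANTCA of AP-1, GGAATG of TEAD, TGACGTCA of the cyclic AMP response element, GGGCGG of the SP1 box and TGTTTAC of FOXA. The EPHA2 stretch held 1 TEAD match, 1 SP1 box and 1 cyclic AMP response element, which start 73, 64 and 51 bases before the transcription start and do not overlap. Over 35116 RefSeq promoters cut to the same length, 11.9% held the TEAD letters, 42.6% an SP1 box and 1.65% the cyclic AMP response element. EPHA2 was the only promoter of the 10 with a match to the TEAD letters or to the cyclic AMP response element, and all 10 held an SP1 box. A match is a description of letters and not evidence of binding.

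The H3K27ac peaks of EPHA2 did not follow its RNA. H3K27ac is an acetylation of histone H3 found at active promoters and enhancers, and the peak that covers the EPHA2 start is 23192 bp long, on chromosome 1 from 16137182 to 16160373. Its rlog was 12.06 in naive cells and 12.09, 11.51 and 11.73 in erCriz0, erAlec0 and erLor0. It was thus almost level in erCriz0 and lower by 0.55 in erAlec0 and 0.33 in erLor0, the lines in which the RNA was highest. Of the 15 paired peaks 13, 13 and 14 were lower than in naive cells in erCriz0, erAlec0 and erLor0, and the median changes were −0.61, −0.67 and −0.53. The medians of the remaining peaks within 5 Mb were 0.13, −0.13 and 0.05. The largest change lay in a peak within the gene, from 16127042 to 16129082, which fell in each resistant line, with changes of −1.37, −1.01 and −1.07. Of the 15 peaks 3 had fallen in erCriz0, 2 in erAlec0 and 2 in erLor0, where 5.94%, 9.41% and 8.82% of all peaks had. A median peak change below 0 beside risen RNA held for 148 of 312 risen genes in erAlec0, or 47.4%. The shares were 27.4% of risen genes in erCriz0 and 34.3% in erLor0. These shares count a median of any size below 0.

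EPHA4 (ENSG00000116106.12, chromosome 2 from 221418027 to 221574202, minus strand) encodes a receptor that binds ephrins of both classes. Its RNA had an rlog of 7.02 in naive cells, with 7.41, 8.39 and 8.16 in erCriz0, erAlec0 and erLor0. It had risen by 1.37 in erAlec0 and by 1.13 in erLor0 and was higher by 0.39 in erCriz0, so that erAlec0 and erLor0 differed by 0.23 only. Its 18 peaks moved both ways, with medians of 0.20, −0.10 and −0.16 in erCriz0, erAlec0 and erLor0. The peak over the start, from 221571389 to 221574348, had an rlog of 8.68 in naive cells, with 8.93, 8.73 and 9.11 in erCriz0, erAlec0 and erLor0.

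Single peaks of EPHA4 differed by line. The largest change was a rise of 1.21 in erAlec0, at a peak from 221500174 to 221501687 that overlaps an exon. In that line 14.1% of all peaks had risen. Its rlog went from 5.83 in naive to 7.03, with 5.98 in erCriz0 and 5.88 in erLor0. The other lines thus stayed within 0.15 of naive cells. In erCriz0, where 7.00% of all peaks had risen, 2 other peaks rose, in an intron from 221545627 to 221546406 by 1.02 and from 221546537 to 221548261 by 1.17, and both lay under naive cells in erAlec0 and in erLor0. Other intronic peaks fell. The peak from 221521065 to 221522207 had a change of −1.10 in erAlec0, and the one from 221534734 to 221535101 had −1.17 in erCriz0 and −1.05 in erAlec0, where 5.94% and 9.41% of all peaks had fallen. In erLor0, where EPHA4 RNA had also risen, the peak that rose in erAlec0 changed by 0.05 only. Its middle 300 bases are shown because its change was the largest of the EPHA4 peaks, from hg38, chr2:221500781-221501080, plus strand.
EPHA4 peak middle: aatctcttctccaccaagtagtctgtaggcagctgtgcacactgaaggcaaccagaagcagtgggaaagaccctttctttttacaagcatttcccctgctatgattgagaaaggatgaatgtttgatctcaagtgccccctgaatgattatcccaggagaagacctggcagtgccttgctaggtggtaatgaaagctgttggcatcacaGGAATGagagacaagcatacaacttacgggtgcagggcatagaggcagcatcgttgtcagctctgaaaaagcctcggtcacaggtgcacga
It held 1 match, to the TEAD letters, which occur in 15.8% of the middle 300 bases of the 95649 peaks that are at least that long.

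EPHA1 (ENSG00000146904.9, chromosome 7 from 143390289 to 143408856, minus strand), the founding member of the family, had an rlog of 8.29 in naive cells, with 8.23, 8.28 and 8.68 in erCriz0, erAlec0 and erLor0. Only erLor0 stood off, by 0.39. The peak nearest its start, from 143407542 to 143408783, had an rlog of 6.13, 6.40, 6.68 and 7.11 in the same order and was higher by 0.99 in erLor0, just under the limit. After the median change of peaks of like GC content and level was taken off, it was higher there by 0.38. That step was chosen after the data had been seen. The promoter peaks of EPHA1 are also paired with ZYX, which overlaps the gene on the opposite strand and had rlog values of 11.05, 10.48, 11.77 and 11.41. How the counting used strand is not given in the sources used here, so reads in the overlap may be hard to assign.

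The 3 EphB receptors had changes of −0.23, −0.57 and −0.40 in erCriz0 for EPHB2, EPHB3 and EPHB4, none of which reached the limit. EPHB4 (ENSG00000196411.10, chromosome 7 from 100802565 to 100827523, minus strand), the main receptor of ephrin-B2, had an rlog of 7.96 in naive cells, with 7.56, 8.57 and 8.59 in erCriz0, erAlec0 and erLor0. The erCriz0 library was the lowest and the other resistant lines were nearly equal. The changes from naive cells were −0.40, 0.61 and 0.63, and erAlec0 and erLor0 lay above erCriz0 by 1.00 and 1.03. Between erAlec0 and erCriz0 2 members, EPHA2 and EPHB4, had risen, where 3.22% of expressed genes had, and EPHB4 alone between erLor0 and erCriz0, where 2.64% had. None had fallen in these comparisons, against 2.68% and 2.73%, and none had risen or fallen between erLor0 and erAlec0, against 0.575% and 0.653%. SLC12A9, which overlaps EPHB4 on the opposite strand, had rlog values of 7.70, 6.99, 7.59 and 7.73 and was also lowest in erCriz0. The part of overlapping reads was not tested.

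The promoter peak of EPHB4, from 100826188 to 100828419, had an rlog of 6.62 in naive cells, with 5.92, 7.35 and 7.57 in erCriz0, erAlec0 and erLor0, the same order of lines as the RNA. The changes were −0.70, 0.73 and 0.95. After the median change of peaks of like GC content and level was taken off, a step chosen after the data had been seen, they were −1.18, 0.36 and 0.34. This peak is also paired with SLC12A9 and 2 other genes. Most peaks of EPHB4 were not higher like it in erAlec0 and erLor0. With the promoter peak counted, 12 of 12 were lower than in naive cells in erCriz0, 10 in erAlec0 and 9 in erLor0. Only 6 of the 12 reached an rlog of 3.91, the log2 of 15 reads, in a library, so these counts include weak peaks. Among these 6 the promoter peak alone was higher than in naive cells in erAlec0. In erLor0 the peak from 100799612 to 100808115 was also higher, by 0.04. The largest change was at an intronic peak from 100808329 to 100809266, with changes of −1.71, −1.25 and −0.83. The medians over all 12 peaks, −0.91, −0.72 and −0.79, lay beside regional medians of 0.00, −0.08 and −0.03. No median was taken without the weak peaks. The promoter is shown because its peak moved in the order of the RNA, from RefSeq on GRCh38.p14, chr7:100827524-100827773, minus strand.
EPHB4 promoter: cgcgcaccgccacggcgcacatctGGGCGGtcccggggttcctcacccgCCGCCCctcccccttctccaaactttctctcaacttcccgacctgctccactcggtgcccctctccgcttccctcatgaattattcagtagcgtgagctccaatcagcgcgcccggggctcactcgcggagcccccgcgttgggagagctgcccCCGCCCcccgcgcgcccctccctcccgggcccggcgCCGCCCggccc
The capitals mark 4 SP1 boxes, and no match to the other 4 motifs lay in this window.

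EPHB2 (ENSG00000133216.16, chromosome 1 from 22710839 to 22921500, plus strand) encodes a receptor of B class ephrins. Its rlog was 8.89 in naive cells and 8.66, 8.21 and 8.77 in erCriz0, erAlec0 and erLor0. It was the only member that was highest in naive cells, and its change of −0.67 in erAlec0 was the lowest of any member. Its peaks showed the reverse in erCriz0, where 15 of 15 were higher than in naive cells and 3 had risen, beside 7.00% of all peaks. The median was 0.78, against 0.04 for the other peaks within 5 Mb. The medians were 0.13 in erAlec0 and −0.01 in erLor0. The largest rise, at an intronic peak from 22737986 to 22742567, took the rlog from 7.38 to 8.94 in erCriz0, with 6.90 in erAlec0 and 7.19 in erLor0. This peak lies 29438 bases downstream of the start. The highest peak within 1 kb of the start, from 22711472 to 22712034, was weak, with an rlog of 3.71 in naive cells and changes of 0.89, 0.60 and 0.68.

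EPHB3 (ENSG00000182580.3, chromosome 3 from 184561785 to 184582408, plus strand), known from the positioning of cells in the intestinal crypt, had an rlog of 7.80 in naive cells, with 7.23, 7.82 and 7.87 in erCriz0, erAlec0 and erLor0. Only erCriz0 was apart from naive cells, by −0.57. The peak over its start is 10636 bp long, from 184561590 to 184572225, and had an rlog of 11.81, 11.99, 11.75 and 12.09, so that its changes stayed between −0.06 and 0.29. A shorter peak just upstream, from 184557494 to 184561494, rose by 1.02 in erCriz0 and was lower by 0.99 in erAlec0 and 0.58 in erLor0. Of the 12 peaks 10, 12 and 10 were lower in erCriz0, erAlec0 and erLor0, at medians of −0.89, −0.68 and −0.56. Most of these were short peaks in the body of the gene, and the one from 184581523 to 184582037 fell by 1.35 in erCriz0 and 1.07 in erAlec0.

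**Figure D2:**
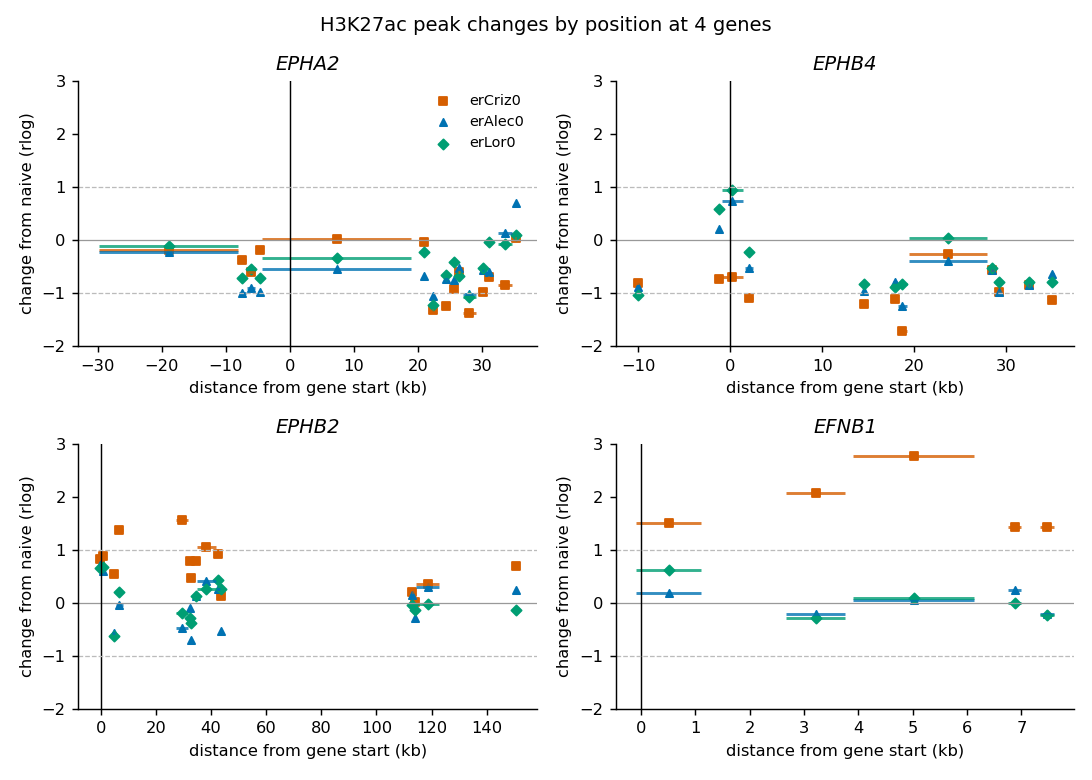
Change of each H3K27ac peak from naive cells (y axis, rlog) against its distance from the gene start in the direction of transcription (x axis, kb) for EPHA2, EPHB4, EPHB2 and EFNB1, with peak length as a horizontal bar and 1 symbol per resistant line. Dashed lines are the limits of −1 and 1. The promoter peak of EPHB4 lies below 0 in erCriz0 and above it in erAlec0 and erLor0, and all 5 EFNB1 peaks lie above 1 in erCriz0. Of these 5, 3 reached an rlog of 3.91 in a library, the floor used for reads per peak.

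Among the ligands, EFNA1 (ENSG00000169242.12, chromosome 1 from 155127876 to 155134899, plus strand) encodes ephrin-A1, a main ligand of EPHA2. Its rlog was 7.80 in naive cells and 8.51, 8.84 and 8.26 in erCriz0, erAlec0 and erLor0, with naive cells the lowest, as for EPHA2. It had risen by 1.04 in erAlec0 and was higher by 0.71 in erCriz0 and 0.46 in erLor0. Its start lies in a peak of 21098 bp, from 155119712 to 155140809, which had an rlog of 12.55, 12.70, 12.81 and 12.87 in naive, erCriz0, erAlec0 and erLor0 cells. This peak was slightly higher in the 3 resistant lines, and it is shared by 5 genes. After the median change of peaks of like GC content and level was taken off, its changes were −0.18, 0.09 and −0.02 in erCriz0, erAlec0 and erLor0. None of the 4 peaks of EFNA1 had risen or fallen in any line.

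EFNB1 (ENSG00000090776.6, chromosome X from 68829021 to 68842160, plus strand) encodes ephrin-B1 and was the lowest member in RNA. Its rlog was 5.87 in naive cells and 6.40, 5.80 and 5.60 in erCriz0, erAlec0 and erLor0, so only erCriz0 lay above naive cells, by 0.53. All 5 of its peaks rose in erCriz0, by 1.42 to 2.76 with a median of 1.51, where 7.00% of all peaks had risen. The median of the 223 peaks around them within 5 Mb was 0.00, and that within 2 Mb was −0.11. None of the 5 had risen or fallen in erAlec0 or erLor0, where the medians were 0.05 and −0.01. All 5 are paired with no other gene. Of the 5, 3 reached an rlog of 3.91 in a library, the floor used here for the study's limit on reads per peak. These 3 rose by 1.51, 2.07 and 2.76 in erCriz0. The peaks from 68835772 to 68836014 and from 68836369 to 68836611 stayed under the floor in each line. Both rose by 1.42, the low end of the range. The peak over the start, from 68828941 to 68830121, went from 4.72 in naive to 6.23 in erCriz0, with 4.91 in erAlec0 and 5.33 in erLor0.

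The largest rise of any member peak was at EFNB1, in an intron from 68832922 to 68835156. Its rlog was 4.38 in naive cells and 7.15, 4.44 and 4.48 in erCriz0, erAlec0 and erLor0, so that 3 lines were alike and erCriz0 stood apart. Its middle 300 bases are shown for that reason, from hg38, chrX:68833890-68834189, plus strand, with motif matches in capitals.
EFNB1 peak middle: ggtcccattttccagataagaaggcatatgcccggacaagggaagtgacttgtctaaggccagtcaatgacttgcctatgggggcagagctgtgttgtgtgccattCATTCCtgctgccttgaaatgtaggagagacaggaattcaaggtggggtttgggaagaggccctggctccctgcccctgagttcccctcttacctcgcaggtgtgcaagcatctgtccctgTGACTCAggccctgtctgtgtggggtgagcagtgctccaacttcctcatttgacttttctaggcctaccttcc
The capitals mark 1 TEAD match at base 107 and 1 AP-1 match at base 228, and the AP-1 letters occur in 9.84% of peaks cut to the same length. No AP-1 match lay in the middle stretch of the most changed peak of any other member.

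EFNA5 (ENSG00000184349.13, chromosome 5 from 107376889 to 107670937, minus strand) encodes ephrin-A5 and carried the broadest change in H3K27ac. It is the longest member and held 68 of the 165 peaks, none of which is paired with another gene. All 68 were lower than in naive cells in erAlec0 and all 68 in erLor0, and 43 had fallen in each, 35 of them in both. In erCriz0 25 were higher, 43 lower and 3 had fallen. Of all peaks 9.41% had fallen in erAlec0, 8.82% in erLor0 and 5.94% in erCriz0. The medians were −0.34 in erCriz0, −1.18 in erAlec0 and −1.12 in erLor0, beside 0.29, 0.02 and −0.01 for the 161 other peaks within 5 Mb. The erAlec0 and erLor0 changes share the naive library. Only 38 of the 68 peaks reached an rlog of 3.91 in a library, the floor used here for the study's limit on reads per peak. The counts of falls at EFNA5 thus include weak peaks. Over all 165 peaks this floor took the falls from 52 to 30 in erAlec0 and from 46 to 27 in erLor0.

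The falls lay in the body of the gene rather than at its start. The peak over the start, from 107668445 to 107673947, had an rlog of 9.99 in naive cells, with 10.31, 9.70 and 9.91 in erCriz0, erAlec0 and erLor0. Its changes of −0.29 in erAlec0 and −0.08 in erLor0 were the smallest of the 68 in each line. After the median change of peaks of like GC content and level was taken off, they were −0.44 and −0.43. They were then no longer the smallest, as a weak intronic peak from 107646114 to 107646375 had −0.29 and −0.07. A peak of 16399 bp inside the gene, from 107463806 to 107480204, had changes of −2.02 in erAlec0, −1.79 in erLor0 and −0.13 in erCriz0. For the 6 peaks of at least 5 kb the medians in erCriz0, erAlec0 and erLor0 were 0.19, −1.25 and −1.19, and for the 62 shorter ones −0.43, −1.16 and −1.12. The largest fall of any member peak, from 107485585 to 107488434 in an intron, took the rlog from 7.50 in naive to 5.22 in erAlec0 and 5.36 in erLor0, with 6.78 in erCriz0. Its middle 300 bases, in which none of the 5 motifs had a match, are from hg38, chr5:107486860-107487159, plus strand.
EFNA5 peak middle: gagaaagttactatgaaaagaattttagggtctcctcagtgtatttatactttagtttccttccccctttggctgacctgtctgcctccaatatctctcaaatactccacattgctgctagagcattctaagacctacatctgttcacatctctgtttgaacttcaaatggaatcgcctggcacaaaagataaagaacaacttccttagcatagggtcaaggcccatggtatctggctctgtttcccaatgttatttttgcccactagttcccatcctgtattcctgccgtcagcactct

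**Figure D3:**
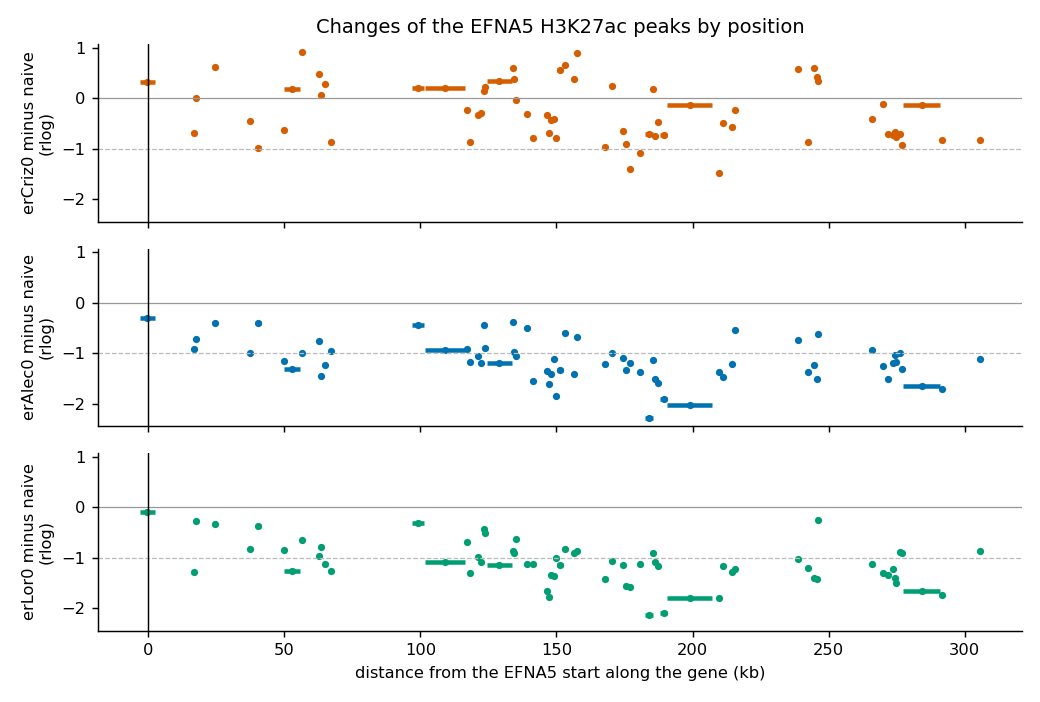
Change of the 68 EFNA5 peaks from naive cells (y axis, rlog) against distance from the gene start in the direction of transcription (x axis, kb), 1 panel per resistant line, with peak length as a horizontal bar. The dashed line is the limit of −1. Of the 68 peaks 38 reached an rlog of 3.91 in a library, the floor used for reads per peak. All points of erAlec0 and erLor0 lie below 0, from −0.29 and −0.08 at the start to −2.28 and −2.14, whereas erCriz0 holds points on both sides.

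EFNA5 RNA was 9.66 in naive cells and 10.15, 9.40 and 9.19 in erCriz0, erAlec0 and erLor0. It was higher by 0.50 in erCriz0 and lower by 0.26 and 0.47 in erAlec0 and erLor0, so the lines with the lower peaks also had the lower RNA, but no RNA change reached the limit. EFNB2 (ENSG00000125266.8, chromosome 13 from 106489745 to 106535662, minus strand), the ligand known from arterial endothelium, varied least in RNA, at 9.05 in naive cells and 9.26, 9.33 and 9.06 in erCriz0, erAlec0 and erLor0. Its 12 peaks were all lower than in naive cells in erAlec0, with a median of −0.49, against 10 higher in erCriz0 and 7 higher in erLor0. The surrounding peaks within 5 Mb had −0.27 there. The highest peak within 1 kb of its start, from 106533298 to 106535166, had an rlog of 7.64 in naive cells, with 7.88, 6.53 and 7.69 in erCriz0, erAlec0 and erLor0 and fell by 1.12 in erAlec0 only. Closer to the start, the peaks from 106535343 to 106535646 and from 106535817 to 106536569 changed by −0.05 and −0.55 in that line.

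**Figure D4:**
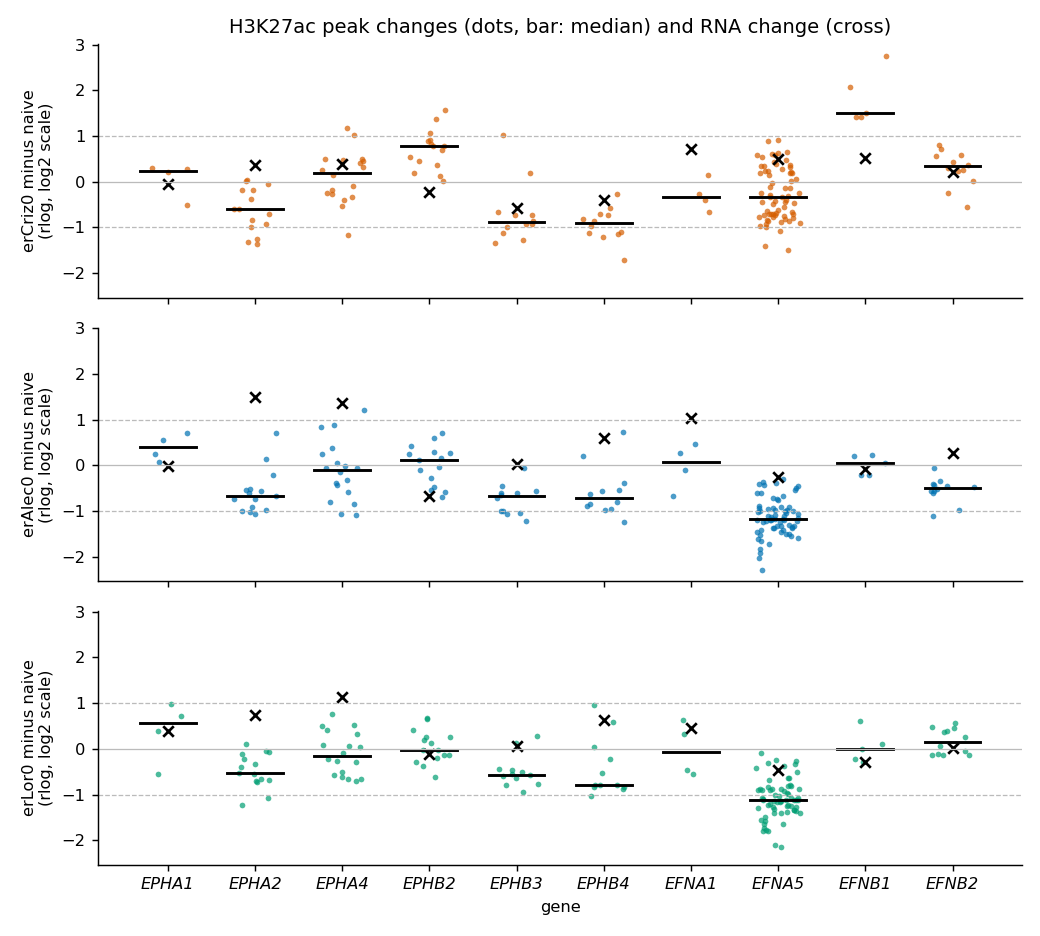
Change from naive cells (y axis, rlog) of every paired H3K27ac peak (dots, spread sideways at random), its median (bar) and the RNA change (cross) for the 10 genes (x axis), 1 panel per resistant line. Dashed lines are −1 and 1. EFNB1 stands above the others in erCriz0 with a median of 1.51, and EFNA5 lies lowest in erAlec0 and erLor0 with −1.18 and −1.12.

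Over the 165 peaks, 11 had risen and 15 fallen in erCriz0, 1 had risen and 52 fallen in erAlec0, and 0 had risen and 46 fallen in erLor0. As shares, 6.67%, 0.606% and 0% had risen beside 7.00%, 14.1% and 7.45% of all peaks, and 9.09%, 31.5% and 27.9% had fallen beside 5.94%, 9.41% and 8.82%. In erAlec0 and erLor0 43 of the falls lay at EFNA5, against 3 in erCriz0. Without EFNA5 12 of 97 peaks had fallen in erCriz0, 9 in erAlec0 and 3 in erLor0. These shares of 12.4%, 9.28% and 3.09% stand beside the same 5.94%, 9.41% and 8.82% of all peaks. Of the 165 peaks, 108 had an rlog of at least 3.91, the log2 of 15 reads, in at least 1 library. With these alone 30 had fallen in erAlec0 and 27 in erLor0, and no share over all peaks was taken with this floor. The peaks of EFNA5 had a median GC content of 40.1%, those of EPHB4 of 57.8% and all peaks of 47.8%. After the median change of peaks of like GC content and level was taken off in the same way, the medians were −1.05 and −0.97 for EFNA5 in erAlec0 and erLor0, −0.66 for EPHA2 in erAlec0 and 1.42 for EFNB1 in erCriz0. Those of EPHA1 went from 0.24 to −0.17 in erCriz0 and from 0.56 to 0.20 in erLor0.

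RNA and median peak change had the same sign for 5 of 10 members in erCriz0, 2 in erAlec0 and 5 in erLor0. Over all expressed genes the shares were 54.0%, 50.0% and 51.2%. In erAlec0 the pair with the same sign was EFNA1 and EFNA5. With the promoter peak in place of the median, the numbers were 7, 4 and 7. These numbers were taken without removal of the trend with GC content and level. With that trend taken off, the promoter peaks of EPHA2, EPHA4, EFNA1, EFNA5 and EFNB2 turned lower in erCriz0, against their RNA. Those of EPHA1 and EPHB3 also turned lower there, as their RNA was. In erLor0 those of EPHB3, EFNA1 and EFNB2 turned lower, against their RNA. The shares over all expressed genes rest on medians, and none was taken for promoter peaks.

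**Figure D5:**
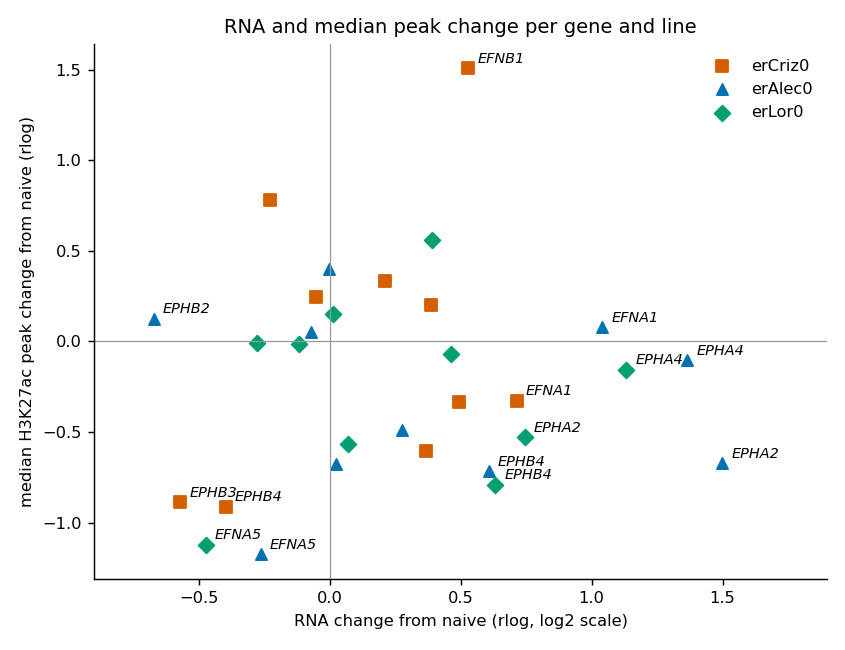
Median H3K27ac peak change (y axis, log2 scale) against RNA change (x axis, log2 scale) of the 10 genes, both from naive cells, with 1 symbol per resistant line and names at points with an RNA change of at least 0.6 or a median peak change of at least 0.85 in size. EPHA2 in erAlec0 lies at 1.499 and −0.67, with higher RNA and lower peaks, and EFNB1 in erCriz0 lies at 0.53 and 1.51.

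Levels of different genes were compared per kb of the MANE transcript, on the rlog scale. EPHA2 was the highest member in each of the 4 lines, at 8.57 in naive cells and 8.93, 10.06 and 9.31 in erCriz0, erAlec0 and erLor0. EFNA5 was next in naive cells at 7.23, followed by EFNA1 at 7.16, EFNB2 at 6.73 and EPHA1 at 6.56. These neighbours lie close together, and without replicates their order has no measured spread. EFNA1 took rank 2 in the 3 resistant lines, and EFNA5 rank 3 in erCriz0 and 4 in erAlec0 and erLor0. EPHB4, EPHB3 and EPHB2 followed at 5.84, 5.71 and 5.42 in naive cells, and EPHA4 and EFNB1 were lowest at 4.35 and 4.15. EPHA4 reached 5.72 in erAlec0 and 5.49 in erLor0, above EPHB2 in both.

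The genes whose 3 RNA changes lay nearest to those of EPHA2 were sought among 12700 other expressed genes by Euclidean distance over the 3 changes. STEAP1 was nearest at 0.09, with changes of 0.43 in erCriz0, 1.45 in erAlec0 and 0.78 in erLor0. PLAGL1 followed at 0.14, with 0.26, 1.41 and 0.72, and S100A6 at 0.21, with 0.30, 1.32 and 0.82. Such likeness rests on 3 values that share the naive library.

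Of the 12 other genes of the family 11 had values and EPHA8 had none. The 5 that were expressed were EPHB1, EPHB6, EFNA2, EFNA4 and EFNB3, and none had risen or fallen from naive cells in the 3 lines. Of all expressed genes 2.65%, 2.46% and 1.10% had risen and 1.65%, 2.07% and 0.740% had fallen in erCriz0, erAlec0 and erLor0. With such shares few calls among 5 genes would be found in any case. EFNB3 RNA was 5.74 in naive cells and 4.85, 5.70 and 6.18 in erCriz0, erAlec0 and erLor0. EPHB6, a receptor without kinase activity, had 6.14, 5.52, 5.76 and 6.72 in the same order. Like EPHB3 and EPHB4, both were lowest in erCriz0. EFNA4, near EFNA1 on chromosome 1, had 4.56, 5.15, 5.07 and 4.94. EFNA2 had 4.81, 4.03, 4.47 and 4.32, and EPHB1 had 4.64, 5.09, 4.75 and 5.09. EFNA3, EPHA3, EPHA5, EPHA6, EPHA7 and EPHA10 stayed under the level called expressed in all 4 lines.

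Of 43 genes that act with Eph receptors and ephrins as adaptors, exchange factors, kinases, GTPases, phosphatases or proteases, 37 were expressed. Of all expressed genes 2.65%, 2.46% and 1.10% had risen in erCriz0, erAlec0 and erLor0. In erCriz0 1 of the 37 had risen, TIAM1, an exchange factor for RAC1, by 1.23 from an rlog of 8.81 in naive cells, with 0.66 in erAlec0 and 0.12 in erLor0. KALRN, another exchange factor, came just short of the limit there. In erLor0 1 of the 37 had risen, MMP14, a membrane protease that can cut EPHA2, by 1.23 from 8.16, with 0.69 in erCriz0 and 0.86 in erAlec0. None had risen in erAlec0, and none had fallen in the 3 lines, where 1.65%, 2.07% and 0.740% of expressed genes had. The 37 had median changes of 0.15, 0.15 and 0.09 in the same order of lines. ADAM10, which sheds ephrin-A ligands, had an rlog of 10.76 in naive cells, with 10.99, 10.62 and 10.30 in erCriz0, erAlec0 and erLor0.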

How the data were processed

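The deposited table covers RNA-seq and H3K27ac ChIP-seq of naive, erCriz0, erAlec0 and erLor0 cells, each from 1 library. The samples described by the labels are ChIP-seq or input libraries, and RNA columns were assigned to lines by the line name they carry. The remaining samples were not analysed here. The authors deposited values on a log2 scale, as rlog values computed with DESeq2 from reads per gene and per merged peak. RNA reads were aligned to hg38 with HISAT2 and counted with HTSeq-count. ChIP reads were aligned with BWA, duplicates were marked, peaks were called with MACS2 and merged over 4 samples, and reads were counted with featureCounts. Tool versions are not given in the sources used here. The deposited columns of a correlation between peak and gene with its p-values were not used.

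Identifiers were matched without their version to GENCODE release 44. The rlog of naive cells was subtracted from that of each resistant line, and a limit of 1 was used. The members, lists and motifs were chosen with earlier results of these data known. Named were all members, the peak of highest mean level within 1 kb of each start, and the most changed peak of at least log2 of 15 in at least 1 library. Sequences came from RefSeq promoters, which matched 10 of 10 members, and from hg38. E-boxes (CANNTG), which 61.8% of promoters and 79.8% of peaks held, were not marked. The scripts were tested on simulated data. Python 3.11.15, numpy 2.4.6, pandas 2.3.3, pysam 0.24.0 and matplotlib 3.10.9 were used.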

Additional observations from a re-analysis of the deposited data

Results flagged for a closer look

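Several values moved in opposite directions in 2 resistant lines that also differed by at least 1, with 1 library per line and the difference not tested. EPHB4 RNA in erCriz0 lay at −1.004 against erAlec0 and −1.03 against erLor0. The EPHB4 promoter peak lay at −1.43 and −1.65 in the same comparisons. The median peak change of EFNB1 in erCriz0 lay 1.51 above that in erLor0, where it was −0.01. The highest EFNB2 peak within 1 kb of the start lay 1.35 higher in erCriz0 than in erAlec0, and in erAlec0 at −1.17 against erLor0. In erLor0 it was only 0.05 above naive cells, and peaks closer to the start changed by −0.05 and −0.55 in erAlec0.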

How the results depend on the processing

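No paired analysis was possible because each line has 1 library and no test was run. Of 150 values under other settings, 98 stayed within 1.5 times a count or 0.1 of a median and 52 moved, and the cause was not tested. Quantile normalization moved none of the values it was run on. Removal of trends with GC content and level, added after the data had been seen, moved no count or median over all member peaks. It moved medians of single genes, as given for EPHA1, and turned the sign of several promoter peaks.

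With a limit of log2 of 1.5, 1 member had risen in erCriz0 and 3 in erLor0, and 1 had fallen in erAlec0. Of the peaks, 25, 8 and 9 had then risen and 57, 94 and 83 fallen in erCriz0, erAlec0 and erLor0. Shares over all expressed genes and all peaks were taken only at the limit of 1, so none stands beside counts at other limits. With a limit of 2, 0 members had risen in erAlec0 and erLor0, 2 peaks had risen in erCriz0 and 0 in erAlec0, and 0, 2 and 2 had fallen. Centring gave 2 risen peaks in erLor0 and a median of −0.50. Peaks of at least log2 of 15 gave 9, 30 and 27 falls, medians of 0.032 in erCriz0, in place of −0.24, and −0.58 in erAlec0, and 3 members of the same sign in erLor0. Peaks paired only within the family gave 6 rises and 8 falls in erCriz0 and medians of −0.34, −0.99 and −0.90. Pairs within 5 kb gave −0.14 in erCriz0. Without EFNA5, a setting added after the data had been seen, 9 peaks had fallen in erAlec0 and 3 in erLor0, with medians of −0.043, −0.46 and −0.14. Means in place of medians left 1 member of the same sign in erAlec0 and 3 in erLor0, and promoter peaks gave 7, 4 and 7.

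Against a region of 2 Mb, the erCriz0 medians stood at 0.18 for EPHA4, 0.87 for EPHB2, −0.14 for EFNA1, −0.50 for EFNA5 and 1.62 for EFNB1. In erAlec0 they stood at −0.15 for EPHA1, 0.31 for EPHB2, −1.02 for EPHB3, −0.25 for EFNB1 and −0.32 for EFNB2, and in erLor0 at −0.71 for EPHB3, −0.064 for EFNA1, −0.23 for EFNB1 and 0.41 for EFNB2. These turned sign for EPHA1 and EFNB1 in erAlec0 and EFNA1 in erLor0. Depth is unknown, so the counting error of weak peaks could not be measured.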
